A study of Mus musculus with 15 samples.

Results

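The dystrophin-glycoprotein complex links the actin cytoskeleton of a muscle fibre to the laminins of the basement membrane. Dystrophin (*Dmd*) binds actin at its amino-terminal part and dystroglycan (*Dag1*) at its carboxy-terminal part, the sarcoglycans form a subcomplex in the membrane beside dystroglycan, and the syntrophins and dystrobrevins bind dystrophin on the cytoplasmic side. Utrophin (*Utrn*), the autosomal paralogue of dystrophin, is concentrated at the neuromuscular and myotendinous junctions of adult fibres. The set was defined by 8 symbols, *Dmd*, *Utrn*, *Dag1*, *Sgca*, *Sgcb*, *Sgcd*, *Sntb1* and *Dtna*, each of which was matched to 1 Ensembl gene of the count table through the GRCm38 annotation. These are 8 of 30672 genes, and all 8 passed the filter on low counts that left 15533 genes for testing.

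RNA was sequenced from the tibialis anterior, a fast hindlimb muscle, of male 129Pas mice aged 7 weeks. There were 4 groups: wild type (WT, n = 4), wild type given tamoxifen (WT + TAM, n = 4), males carrying the mutated X-linked *Mtm1* gene for the phosphoinositide phosphatase myotubularin (Mtm1-/y, n = 4), and such males given tamoxifen (Mtm1-/y + TAM, n = 3). Tamoxifen binds oestrogen receptors and acts as agonist or antagonist by tissue. The submitters' labels mark the libraries of both mutant groups as KO, short for knock-out. The design of this *Mtm1* allele and the tamoxifen regimen were not available here. Each library was labelled as a replicate of its group, with 1 column of counts.

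Total counts were 18042558 to 45823277 per library. All levels below are CPM values, that is counts divided by the library size and the TMM factor of edgeR and multiplied by 1e+06, and a gene was called when the Benjamini-Hochberg adjusted p of edgeR's quasi-likelihood test over all 15533 genes was under 0.05. The targeted gene matched the labels, since *Mtm1* was at 14.9 to 15.6 CPM in WT, 13.5 to 17.7 in WT + TAM, 2.91 to 3.63 in Mtm1-/y and 3.04 to 3.71 in Mtm1-/y + TAM. The 7 markers of fast muscle, among them *Ckm* and *Acta1*, summed to 171571 to 233318 CPM in WT, 131717 to 179619 in Mtm1-/y, 152802 to 192546 in WT + TAM and 143697 to 146312 in Mtm1-/y + TAM. Of the 7, 2 were called lower in Mtm1-/y against WT and 1 in Mtm1-/y + TAM against WT + TAM. Over all genes tested, 14.9% and 9.46% were called lower in these comparisons. Among these 15 libraries, Mtm1-/y replicate 1 and WT + TAM replicate 1 stood apart from their groups. The former held the highest *Dmd* and *Sgca* levels of all libraries, and its 7 fibroblast markers summed to 368 CPM against 1009 to 1975 in the other Mtm1-/y libraries and its 5 red blood cell markers to 14.9 against 54.6 to 66.5. In the latter 8 slow-fibre markers summed to 1377 CPM against 68.3 to 123 in the other WT + TAM libraries. Its fibroblast markers summed to 4723 CPM against 898 to 1837, and its Schwann cell markers to 203 against 73.9 to 134. Its endothelial markers summed to 461 CPM against 696 to 749.

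Levels were compared between genes per kilobase of annotated exon. In WT muscle *Sgca*, the alpha-sarcoglycan gene, had the highest level at 127 ± 6.71 CPM per kb (SD, n = 4), above 98.6% of the tested genes. It was followed by *Dag1* at 52.1 ± 3.26 and *Sgcb*, the beta-sarcoglycan gene, at 44.9 ± 4.99, whose libraries overlapped. Next came *Dtna*, the alpha-dystrobrevin gene, at 6.66 ± 1.01 and *Dmd* at 5.45 ± 0.622 CPM per kb, which also overlapped. *Sntb1*, which encodes beta-1 syntrophin, was at 3.22 ± 0.109, *Utrn* at 1.77 ± 0.135 and *Sgcd*, the delta-sarcoglycan gene, at 1.00 ± 0.184, and these 3 overlapped none of their neighbours. The exon lengths differed widely, from 1735 bases for *Sgca* to 23801 for *Dmd*, and all exons of all transcripts were pooled, so a gene with many isoforms, such as *Dmd*, has a level per kb that depends on the annotation.

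In Mtm1-/y the first 5 places were taken by *Sgca*, *Dag1*, *Sgcb*, *Dtna* and *Dmd* again, and *Sntb1* was last at 0.855 CPM per kb. *Sntb1* was also last in Mtm1-/y + TAM, at 0.741 ± 0.212 CPM per kb (SD, n = 3), and it held the sixth place in WT + TAM at 5.30 ± 2.30 (SD, n = 4).

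**Figure D1:**
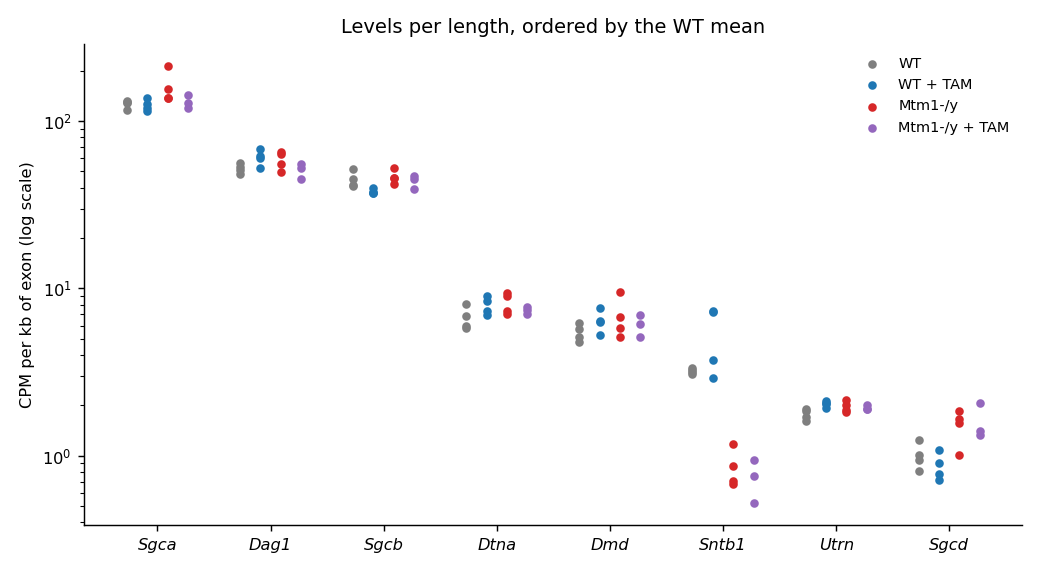
Levels of the 8 genes in CPM per kb of exon on a log axis, a point per library and a colour per group, with the genes ordered by their WT mean. Only *Sntb1* has Mtm1-/y and Mtm1-/y + TAM points wholly below both wild-type groups, and *Sgca* is the highest gene in every group.

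The comparison of Mtm1-/y with WT shows what differed between the genotypes in untreated muscle. Of the 8 genes, 2 were called, *Sntb1* lower and *Sgcd* higher, against 30.4% of all genes tested (15.5% higher and 14.9% lower). The count of 2 in 8 is thus close to the share over all genes. The 8 genes had a median log2 fold change of 0.23, and over all genes tested it was 0.00047. In bulk muscle, fewer cells of a type and less RNA per cell cannot be told apart, and this holds for every difference below.

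Beta-1 syntrophin is an adaptor whose PDZ domain binds channels and signalling proteins, and in muscle it sits at the sarcolemma of part of the fibres and at the neuromuscular junction. *Sntb1* (ENSMUSG00000060429) lies at chr15:55636388-55906949 on the minus strand (GRCm38, the build of all coordinates here). It was at 17.0, 16.4, 17.8 and 17.3 CPM in the WT libraries and at 4.60, 3.59, 6.23 and 3.79 CPM in the Mtm1-/y libraries. The groups did not overlap, as was the case in this direction for 15.7% of all genes, and the highest mutant level was under the lowest WT level by more than the whole range of either group. In the mutant *Sntb1* was 3.76-fold lower (log2 difference -1.91 ± 0.29, SE, adjusted p = 0.000305), and only 209 of the 15533 genes had a lower value. The counts behind it were 403 to 690 per WT library and 89 to 196 per Mtm1-/y library. *Sntb1* was called under all 24 alternatives, with log2 fold changes from -2.08 to -1.82.

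The treated groups gave a second comparison of the genotypes, whose group means have no library in common with the first. The same fit of all 15 libraries gave both, with a shared estimate of the spread, so their p-values are not independent. In WT + TAM the *Sntb1* levels were 15.6, 20.0, 38.4 and 39.0 CPM, and in Mtm1-/y + TAM 4.03, 2.78 and 5.03 CPM. Replicates 3 and 4 of WT + TAM were at about the same high level and replicates 1 and 2 close to untreated WT, while the 3 treated mutants lay within or just below the untreated mutant range. The genotype difference was -2.84 ± 0.33 (log2, SE, adjusted p = 7.27e-05), or 7.17-fold lower, and the groups did not overlap, as in this direction for 14.4% of all genes. It was called under all 24 alternatives (-3.08 to -2.63). The size of the genotype difference with and without tamoxifen was compared by the interaction term, which was -0.93 ± 0.42 (log2, SE) with a 95% interval from -1.82 to -0.04 before adjustment and an adjusted p of 0.458. A different genotype effect of *Sntb1* under tamoxifen was therefore not called.

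Tamoxifen itself gave no call for *Sntb1*. Between WT + TAM and WT it differed by 0.73 ± 0.27 (log2, SE, adjusted p = 0.312) with overlapping groups, and it was 0.93 (adjusted p = 0.0993) without WT + TAM replicate 1 and 0.53 (adjusted p = 0.567) without replicate 4. Between Mtm1-/y + TAM and Mtm1-/y it was -0.21 ± 0.32 (adjusted p = 0.928).

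**Figure D2:**
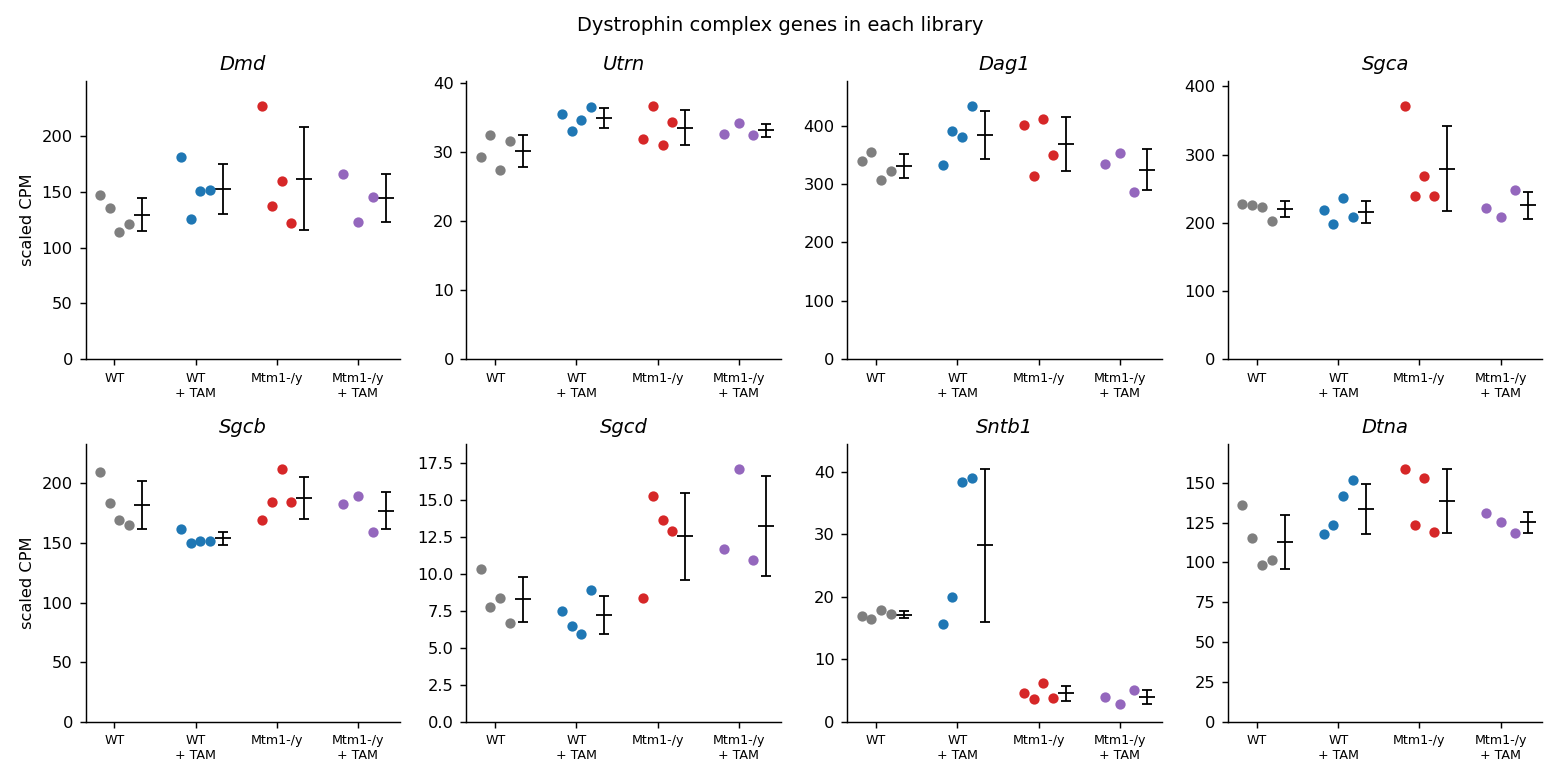
Scaled CPM of the 8 genes, a panel per gene with its own linear axis from 0, a point per library in replicate order, and the group mean with SD as a black bar. *Sntb1* is at 2.78 to 6.23 CPM in the 7 mutant libraries and at 15.6 to 39.0 CPM in the 8 wild-type libraries, while the other panels show group ranges that mostly overlap.

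*Sntb1* was set beside *Sntb2*, which encodes beta-2 syntrophin. *Sntb2* was at 13.0 ± 1.56 CPM in WT and 9.99 ± 2.05 in Mtm1-/y (log2 fold change -0.38 ± 0.14, adjusted p = 0.0512) and was not called. Per kb of exon, *Sntb1* made up 72.0% ± 2.56 of the summed level of these beta syntrophin genes in WT, 78.1% ± 9.17 in WT + TAM, 46.8% ± 11.1 in Mtm1-/y and 41.9% ± 7.69 in Mtm1-/y + TAM (SD, n = 4, 4, 4 and 3). The wild-type and mutant shares did not overlap. The gamma syntrophins were barely detected, with at most 4 counts of *Sntg1* and 12 of *Sntg2* in any library.

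**Figure D3:**
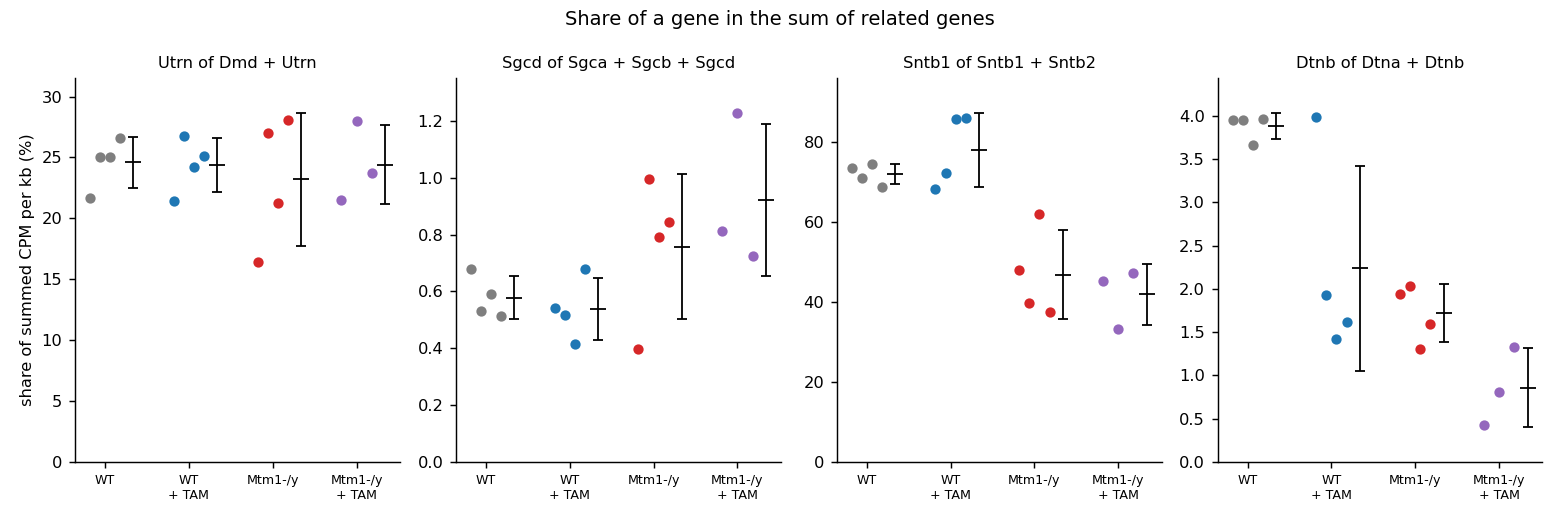
Share of a gene in the CPM per kb summed over the genes named above its panel, in percent, a point per library and the group mean with SD as a black bar, on linear axes from 0. The *Sntb1* share is 33.1% to 62.1% in the 7 mutant libraries and 68.3% to 86.0% in the 8 wild-type libraries, whereas the *Utrn* shares of the 4 groups overlap.

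The sarcoglycans are single-pass membrane glycoproteins whose loss causes limb-girdle muscular dystrophies. Of the 3 in the set, *Sgcd* was called higher in the mutant, *Sgca* lay at the threshold and *Sgcb* showed no call. *Sgcd* (ENSMUSG00000020354, chr11:46896253-47988969, minus strand) was at 10.3, 7.74, 8.36 and 6.69 CPM in WT and at 8.40, 15.2, 13.6 and 12.9 CPM in Mtm1-/y. Mtm1-/y replicate 1 lay within the WT range and the other 3 above it. The difference was 0.60 ± 0.20 (log2, SE, adjusted p = 0.0332), or 1.51-fold, and it was 0.75 (adjusted p = 0.00589) without that library. The call was lost in 6 of the 8 fits without an untreated library, namely without WT replicate 2, 3 or 4 or without Mtm1-/y replicate 2, 3 or 4, in which the log2 fold change was 0.49 to 0.60 and the adjusted p 0.0623 to 0.1004.

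Under tamoxifen the *Sgcd* levels were 7.48, 6.47, 5.96 and 8.88 CPM in WT + TAM and 11.7, 17.1 and 11.0 CPM in Mtm1-/y + TAM. These groups did not overlap, as in the higher direction for 17.2% of all genes. The difference was 0.88 ± 0.21 (log2, SE, adjusted p = 0.00979), or 1.84-fold, and it fell to 0.65 (adjusted p = 0.0756) without Mtm1-/y + TAM replicate 2. *Sgcd* had the lowest counts of the set beside *Sntb1*, from 127 to 646 per library. Per kb it was also the smallest of the 3 sarcoglycans of the set, with 0.578% ± 0.0744 of their summed level in WT, 0.537% ± 0.109 in WT + TAM, 0.757% ± 0.256 in Mtm1-/y and 0.921% ± 0.268 in Mtm1-/y + TAM (SD). The Mtm1-/y range of this share (0.396% to 0.997%) held the whole WT range (0.511% to 0.677%).

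*Sgca* (ENSMUSG00000001508, chr11:94962791-94976327, minus strand) was at 228, 226, 223 and 203 CPM in WT and at 371, 239, 268 and 239.9 CPM in Mtm1-/y. The groups did not overlap, as in the higher direction for 14.8% of all genes, and Mtm1-/y replicate 1 was far above the rest. The difference was 0.35 ± 0.13 (log2, SE, adjusted p = 0.0512), and it was 0.18 (adjusted p = 0.156) without that library. DESeq2 called it (0.36, adjusted p = 0.0275), and limma-voom did not (0.32, adjusted p = 0.0609). It was also called without Mtm1-/y replicate 2 (adjusted p = 0.0338), 3 (0.0474) or 4 (0.0331). In the treated groups *Sgca* was at 198 to 237 CPM in WT + TAM and 208 to 247 in Mtm1-/y + TAM, a difference of 0.07 ± 0.14 (log2, SE, adjusted p = 0.782).

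*Sgcb* (ENSMUSG00000029156, chr5:73632749-73647790, minus strand) was at 165 to 209.9 CPM in WT and 169 to 212 in Mtm1-/y (log2 fold change 0.04 ± 0.10, adjusted p = 0.768), with a 95% interval from -0.16 to 0.25. In WT + TAM its 4 libraries were at 162, 150.0, 151 and 152 CPM, all below the lowest WT library, as in this direction for 3.86% of all genes, and the difference of -0.24 ± 0.10 (log2, SE) was not called (adjusted p = 0.358). *Sgce*, the epsilon-sarcoglycan gene, which lies outside the set and is expressed widely outside muscle, was at 6.17 ± 0.919 CPM in WT and 5.76 ± 0.649 in Mtm1-/y (-0.10 ± 0.16, adjusted p = 0.679). *Sgcz* was not analysed here.

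The sequence before the transcription start is shown for these sarcoglycan genes, as that of *Sgcd* precedes the gene that was called and that of *Sgca* the one at the threshold. The sequences are the 250 bases before the start in RefSeq (GRCm38.p6), which lists 6 of the 8 genes in the table used here, without *Sntb1* and *Dtna*, and they are written 5′ to 3′ on the strand of the gene. Capitals mark E-boxes (CANNTG, a palindromic pattern that myogenic factors and many other basic helix-loop-helix proteins bind). The first window is chr11:94976328-94976577 and the second chr11:47379326-47379575, both on the minus strand.
*Sgca*: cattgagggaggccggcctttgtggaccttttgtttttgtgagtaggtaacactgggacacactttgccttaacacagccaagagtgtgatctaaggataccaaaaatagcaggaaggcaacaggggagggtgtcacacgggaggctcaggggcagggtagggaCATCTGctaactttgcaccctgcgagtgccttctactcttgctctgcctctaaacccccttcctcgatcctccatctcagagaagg
*Sgcd*: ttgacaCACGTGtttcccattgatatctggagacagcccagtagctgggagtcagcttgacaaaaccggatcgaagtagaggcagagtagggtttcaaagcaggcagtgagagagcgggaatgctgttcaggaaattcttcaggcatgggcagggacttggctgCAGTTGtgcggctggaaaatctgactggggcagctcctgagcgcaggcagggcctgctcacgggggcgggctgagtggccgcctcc
The *Sgca* window held 1 E-box, which begins at position -86 from the start, and the *Sgcd* window held 2, at -244 and -86. An E-box was found in 66.2% of 32807 promoter windows of this length. A GC box (GGGCGG, on either strand) lay at -23 from the *Sgcd* start and was found in 32.7% of windows. The RefSeq start of *Sgcd* lies 609644 bases inside the GENCODE gene, so that other starts exist upstream. The counts per gene do not show which start was used.

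*Dmd* and *Utrn* encode long spectrin-repeat proteins that compete for the same place in the complex, and a rise of utrophin can stand in for dystrophin where the latter is missing. *Dmd* (ENSMUSG00000045103, chrX:82948870-85206141, plus strand) was at 147, 135, 114 and 122 CPM in WT and at 227, 138, 160.1 and 123 CPM in Mtm1-/y. Only Mtm1-/y replicates 1 and 3 were above the WT range. The difference was 0.32 ± 0.17 (log2, SE, adjusted p = 0.169) with a 95% interval from -0.04 to 0.68, and without Mtm1-/y replicate 1 it was 0.11 (adjusted p = 0.577). In the treated groups *Dmd* was at 181, 126, 151 and 152 CPM in WT + TAM and at 166, 123 and 145 CPM in Mtm1-/y + TAM (-0.08 ± 0.18, adjusted p = 0.811).

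*Utrn* (ENSMUSG00000019820, chr10:12382188-12869365, minus strand) was at 29.3, 32.5, 27.4 and 31.7 CPM in WT and at 32.0, 36.7, 31.0 and 34.4 CPM in Mtm1-/y, and the groups overlapped. The difference was 0.15 ± 0.08 (log2, SE, adjusted p = 0.162) with a 95% interval from -0.02 to 0.32. Under tamoxifen it was 33.1 to 36.5 CPM in WT + TAM and 32.6 to 34.2 in Mtm1-/y + TAM (-0.08 ± 0.08, adjusted p = 0.572). All 4 WT + TAM libraries lay above all 4 WT libraries, as in the higher direction for 4.22% of all genes, but the difference of 0.21 ± 0.08 (log2, SE) was not called (adjusted p = 0.307). Per kb, *Utrn* made up 24.6% ± 2.09 of the summed level of both genes in WT, 24.4% ± 2.23 in WT + TAM, 23.2% ± 5.44 in Mtm1-/y and 24.4% ± 3.26 in Mtm1-/y + TAM (SD). The balance between both paralogues thus differed between groups by less than the spread within them.

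For *Dmd* RefSeq lists starts at each end of the gene, and both are shown because the count per gene adds up transcripts from either. The first window is chrX:82948620-82948869 and the second chrX:85048045-85048294, on the plus strand, and capitals again mark E-boxes.
*Dmd*, first start: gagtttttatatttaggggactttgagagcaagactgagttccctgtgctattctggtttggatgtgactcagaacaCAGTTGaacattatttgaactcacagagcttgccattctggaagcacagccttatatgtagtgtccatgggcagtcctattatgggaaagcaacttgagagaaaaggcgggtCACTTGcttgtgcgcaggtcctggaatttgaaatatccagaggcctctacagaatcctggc
*Dmd*, second start: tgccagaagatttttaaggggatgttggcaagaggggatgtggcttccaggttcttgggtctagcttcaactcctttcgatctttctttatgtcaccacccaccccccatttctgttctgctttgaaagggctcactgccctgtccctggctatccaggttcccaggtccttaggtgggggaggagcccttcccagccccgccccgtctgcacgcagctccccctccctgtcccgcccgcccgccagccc
The second start lies 2099425 bases downstream of the first, at 93% of the length of the gene. The first window held 2 E-boxes at positions -173 and -61 from the start, a CArG box at -98 (found in 1.47% of windows) and a MEF2 site at -244 (2.92% of windows). The second window held neither of these, but 3 GC boxes beginning at -52, -18 and -14, the last 2 of which overlap. The RefSeq start of *Utrn* lies 7630 bases inside the GENCODE gene, and its window is not shown. No N-box (TTCCGG, on either strand, found in 12% of windows) was in any window of the 6 genes. The *Utrn* window does not reach the start of the GENCODE gene, so the sequence upstream of that start was not searched. Whether an N-box lies there was not tested.

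*Dag1* encodes both dystroglycan subunits, of which the outer one binds laminin through its O-mannosyl glycans. The gene (ENSMUSG00000039952, chr9:108204634-108263958, minus strand) was at 339.8, 355, 307 and 323 CPM in WT and at 402, 313, 413 and 351 CPM in Mtm1-/y, with overlap (log2 fold change 0.16 ± 0.11, SE, adjusted p = 0.308). In WT + TAM it was at 333, 392, 381 and 434 CPM and in Mtm1-/y + TAM at 335, 354 and 287 CPM (-0.24 ± 0.12, adjusted p = 0.176). With Mtm1-/y replicate 1 and WT + TAM replicate 1 both left out, the latter difference was -0.31 with an adjusted p of 0.0498.

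*Dtna* encodes alpha-dystrobrevin, which binds dystrophin and syntrophins and anchors signalling proteins. The gene (ENSMUSG00000024302, chr18:23415135-23659715, plus strand) was at 136, 115, 98.5 and 101 CPM in WT and at 159, 123, 153 and 119 CPM in Mtm1-/y. The groups overlapped through WT replicate 1, and the log2 fold change of 0.30 ± 0.13 (SE, adjusted p = 0.0836) became 0.40 (adjusted p = 0.0311) without that library. In the treated groups it was 118 to 152 CPM in WT + TAM and 118 to 131 in Mtm1-/y + TAM (-0.10 ± 0.14, adjusted p = 0.669). *Dtna* shares 90 exon bases with an antisense gene that had at most 74 counts in any library. The other 7 genes share no exon base with another annotated gene.

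Tamoxifen was assessed within each genotype. None of the 8 genes was called between Mtm1-/y + TAM and Mtm1-/y by edgeR, where 0.0129% of all genes were, and none by DESeq2 or limma-voom. Of the 8, 1 gene, *Sgca*, had an unadjusted p under 0.05 (log2 fold change -0.31 ± 0.14, adjusted p = 0.855), and the median over the 8 genes was -0.16 against -0.0031 over all genes. Between WT + TAM and WT 0 of the 8 genes were called by edgeR, DESeq2 or limma-voom, and 0.309% of all genes (48 genes) were called by edgeR. That number was 298 with DESeq2, 11 to 143 without a library (11 without WT replicate 1, 143 without Mtm1-/y replicate 1) and 347 without both libraries that stood apart. *Utrn*, *Sgcb* and *Sntb1* had an unadjusted p under 0.05, and the median was 0.21 against 0.0024 over all genes. The interaction of genotype and tamoxifen also gave 0 calls by these tools, with 0% of all genes called by edgeR (74 genes by DESeq2). Its unadjusted p was under 0.05 for *Dag1* (-0.40 ± 0.17, adjusted p = 0.425), *Sntb1* and *Dtna* (-0.39 ± 0.18, adjusted p = 0.470). The tamoxifen and genotype comparisons share libraries with each other and are not independent.

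**Figure D4:**
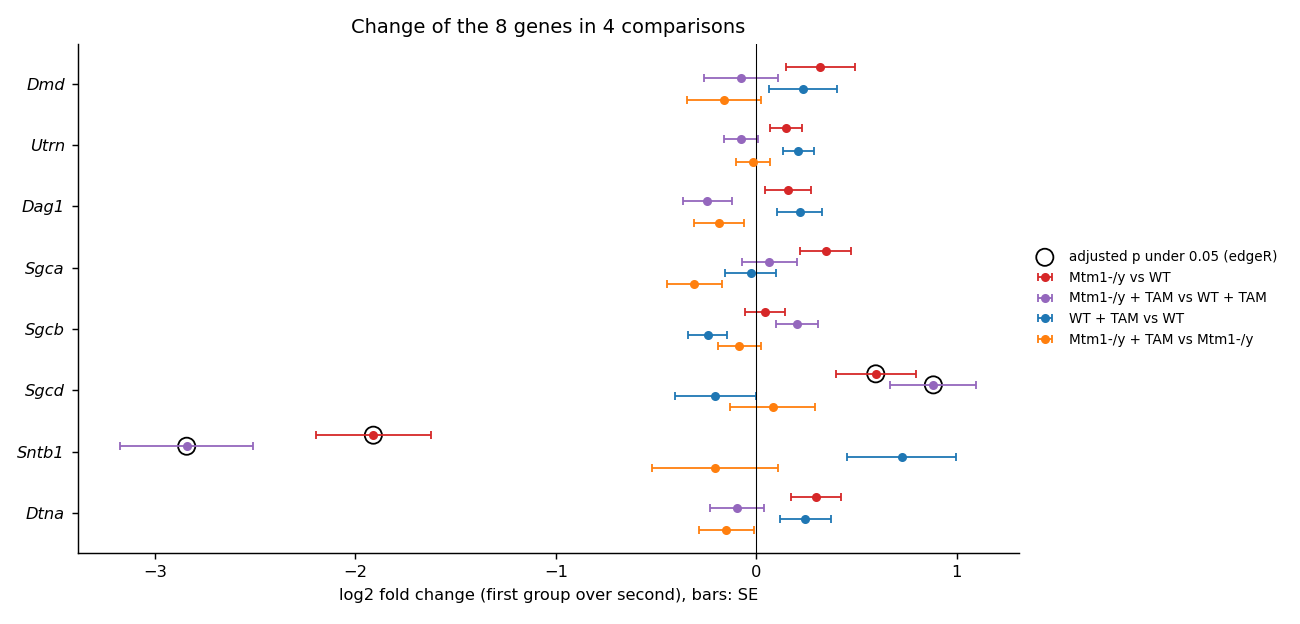
Log2 fold changes (x axis, first group over second) of the 8 genes in 4 comparisons, with SE bars and a ring around each value with an adjusted p under 0.05. Rings are on *Sntb1* (-1.91 and -2.84) and *Sgcd* (0.60 and 0.88) in the genotype comparisons, and on no value of the tamoxifen comparisons.

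In the treated genotype comparison the same number of the 8 genes was called, *Sgcd* higher and *Sntb1* lower, against 20.1% of all genes (10.6% higher and 9.46% lower). Over all genes these were 3121 calls, and 1656 without Mtm1-/y + TAM replicate 2. Both genes were thus called in the same direction in both genotype comparisons, as 13.8% of all genes tested were. The 8 genes had a median of -0.08 (log2) in treated muscle, with -0.017 over all genes. *Dmd*, *Utrn*, *Dag1* and *Dtna* had positive values in untreated and negative values in treated muscle, none of them called.

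Of 10 further listed genes of the complex and its paralogues, 8 were tested. In untreated muscle 1 was called higher and 2 lower, and 3 of 8 is close to the 30.4% called over all genes. *Dtnb*, which encodes beta-dystrobrevin, the paralogue of *Dtna* that is more common outside muscle, was at 2.59 ± 0.452 CPM in WT and 1.37 ± 0.316 in Mtm1-/y (log2 fold change -0.93 ± 0.30, SE, adjusted p = 0.0292), and the groups did not overlap, as in the lower direction for 15.7% of all genes. It had only 36 to 129 counts in the libraries of both groups, and its call was lost without WT replicate 1 (adjusted p = 0.0868) or 2 (0.0614) or Mtm1-/y replicate 2 (0.0512), 3 (0.0748) or 4 (0.0765). Per kb *Dtnb* made up 3.88% ± 0.148 of both dystrobrevins in WT and 1.72% ± 0.335 in Mtm1-/y (SD, n = 4), with ranges that did not overlap. *Drp2*, a shorter dystrophin relative known from the myelin of Schwann cells, was at 9.59 ± 2.18 CPM in WT and 5.85 ± 0.792 in Mtm1-/y (-0.71 ± 0.16, adjusted p = 0.00383), again without overlap, and was called under all 24 alternatives. The 10 Schwann cell markers summed to 79.4 to 117 CPM in WT and 104 to 146 in Mtm1-/y. Of the 10, 2 were called higher and 0 lower, against 15.5% higher and 14.9% lower over all genes. In treated muscle 0 of the 10 were called, against 20.1% of all genes. Their median log2 fold change was -0.30 there and 0.14 in untreated muscle. The part of Schwann cells in the values of *Drp2* was not tested.

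*Cav3*, which encodes the muscle caveolin that binds dystroglycan, was higher in the mutant (71.4 ± 9.48 against 104 ± 29.8 CPM, 0.54 ± 0.18, adjusted p = 0.0361), although Mtm1-/y replicate 1 lay within the WT range. That call held under 13 of 24 alternatives, and it was lost without WT replicate 2, 3 or 4 or Mtm1-/y replicate 2, 3 or 4 (adjusted p 0.0511 to 0.114). *Sspn*, the gene of sarcospan, a tetraspan-like partner of the sarcoglycans, had a log2 fold change of -0.17 ± 0.13 (adjusted p = 0.329). *Nos1*, whose product is held at the muscle membrane by the complex, was at 92.5 ± 11.0 CPM in WT and 75.2 ± 16.2 in Mtm1-/y (-0.30 ± 0.22, adjusted p = 0.315).

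In treated muscle 1 of the 8 further genes was called higher and 3 lower, against 20.1% of all genes called (10.6% higher and 9.46% lower). *Dtnb* (-1.40 ± 0.36, adjusted p = 0.0129), *Drp2* (-1.07 ± 0.17, adjusted p = 0.000728) and *Nos1* (-1.15 ± 0.24, adjusted p = 0.00428) were lower, and *Cav3* was higher (0.72 ± 0.20, adjusted p = 0.0181). Of these, *Dtnb* lost its call without Mtm1-/y + TAM replicate 1 (adjusted p = 0.0526) or 2 (0.0590), and *Cav3* without Mtm1-/y + TAM replicate 2 (0.106). *Nos1* was at 85.5 to 195 CPM in WT + TAM and at 51.8 to 74.7 in Mtm1-/y + TAM, which did not overlap, as in the lower direction for 14.4% of all genes. Its mean was 141 CPM in WT + TAM against 92.5 in WT, and 63.2 in Mtm1-/y + TAM against 75.2 in Mtm1-/y. For *Drp2* these means were 14.7 against 9.59 and 6.96 against 5.85 CPM. None of the 8 further genes was called between WT + TAM and WT.

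**Figure D5:**
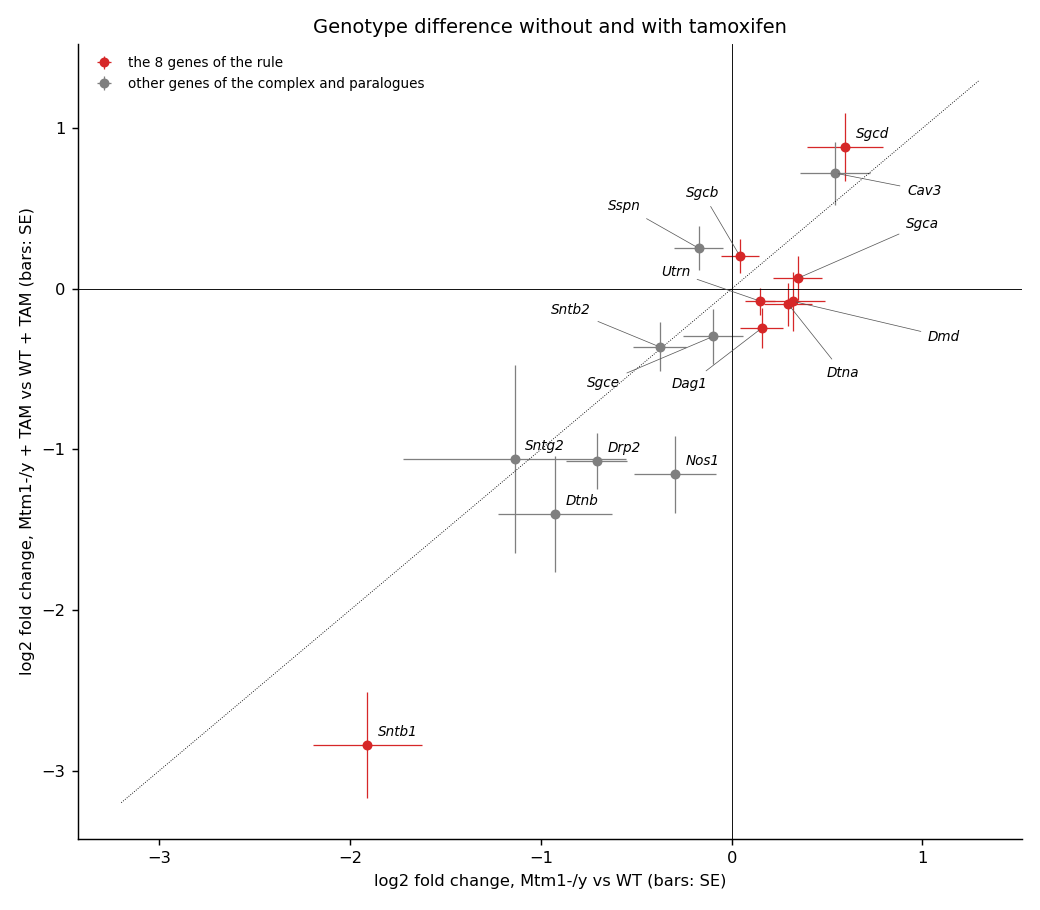
Log2 fold change between the genotypes without tamoxifen (x axis) and with tamoxifen (y axis) for the 8 genes of the set (red) and 8 other tested genes of the complex and its paralogues (grey), with SE bars, and a dotted line of equal values. *Sntb1* lies far at the lower left (-1.91 and -2.84), *Dtnb* (-0.93 and -1.40) lies on the same side of both axes, and *Sgcd* is at the upper right (0.60 and 0.88).

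Proteins that the complex binds on either side were taken from further lists. Outside the fibre, 9 genes of dystroglycan ligands were tested, and 3 were lower and 1 higher in Mtm1-/y. Over all genes 14.9% were called lower and 15.5% higher. *Lama4*, a laminin chain of vessels and of developing muscle, was lower (log2 fold change -1.41 ± 0.25, SE, adjusted p = 0.000959) under all 24 alternatives. *Lamb1* (-0.85 ± 0.25, adjusted p = 0.018) and *Lamc1* (-0.39 ± 0.14, adjusted p = 0.0469) were lower too, and *Lamb2*, a chain of synaptic laminins, was higher (0.38 ± 0.11, adjusted p = 0.020). The *Lamc1* call held in 5 of the 15 fits without a library. *Lamb1* lost its call without WT replicate 4 (adjusted p = 0.051), with no low-count filter (0.0644) and without both libraries that stood apart (0.0545), and *Lamb2* without WT replicate 1 (0.0562) or 3 (0.0648). The median of the list was -0.27. Beside this, 7 of 10 endothelial markers were called lower, and their sum was 621 to 764 CPM in WT and 376 to 468 in Mtm1-/y. All 10 passed the filter on low counts. The 6 markers of smooth muscle and pericytes summed to 553 to 697 CPM in WT and 367 to 488 in Mtm1-/y (1 called higher and 2 lower). The part of these cells in the values of the ligands and of the 8 genes was not tested. In treated muscle 2 of the 9 ligands were lower, *Lama4* (-0.84 ± 0.27, adjusted p = 0.0416, under 14 of 24 alternatives) and *Agrn*, the gene of agrin (-0.53 ± 0.17, adjusted p = 0.0416, under 17 of 24), and 0 were higher. In that comparison 9.46% of all genes were called lower and 10.6% higher. There 6 of 10 endothelial markers were called lower, with sums of 461 to 749 CPM in WT + TAM and 357 to 459 in Mtm1-/y + TAM. The sum of 461 CPM was that of WT + TAM replicate 1, and the other WT + TAM libraries were at 696 to 749. Of the 6 markers of smooth muscle and pericytes 4 were called lower and 1 higher, with sums of 453 to 614 and 355 to 436 CPM. The lowest WT + TAM sum was again that of replicate 1.

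The O-mannosyl glycans of dystroglycan are built by a chain of enzymes, of which 15 of 16 listed genes were tested. Of these, 2 were higher in Mtm1-/y and 0 lower by edgeR, against 30.4% of all genes called in either direction, with a list median of -0.0017. They were *Dpm2* (0.30 ± 0.09, adjusted p = 0.022, called under 19 of 24 alternatives), a subunit of the dolichol-phosphate mannose synthase, and *Pomgnt1* (0.26 ± 0.07, adjusted p = 0.0124). In treated muscle *Pomgnt1* was higher (0.26 ± 0.08, adjusted p = 0.0294, called under 17 of 24 alternatives), and *Rxylt1* (-0.45 ± 0.10, adjusted p = 0.00668) and *Pomt1* (-0.42 ± 0.14, adjusted p = 0.0496) were lower. The *Pomt1* call held under 11 of 24 alternatives.

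Inside the fibre, 10 genes of cytoskeletal partners were tested, and 3 were higher and 2 lower in Mtm1-/y, against 15.5% higher and 14.9% lower over all genes. *Des*, the gene of desmin, was higher (1.07 ± 0.12, adjusted p = 3.10e-05), as were *Ank3* (0.56 ± 0.18, adjusted p = 0.0268, but 0.33 with an adjusted p of 0.0823 without Mtm1-/y replicate 1) and the keratin gene *Krt8*, which had 0 to 2 counts in the WT libraries and 24 to 285 in the Mtm1-/y libraries. *Actg1*, which encodes the cytoplasmic gamma actin that dystrophin and utrophin bind, was lower (-0.76 ± 0.14, adjusted p = 0.00132), and so was *Ank2* (-0.68 ± 0.13, adjusted p = 0.0017), whose product helps to place dystrophin at the membrane. The laminin receptor of muscle outside this complex is the integrin of *Itga7* and *Itgb1*. Both were higher in Mtm1-/y (0.65 ± 0.11, adjusted p = 0.000429, and 0.67 ± 0.14, adjusted p = 0.00251) and again in Mtm1-/y + TAM against WT + TAM (0.65 ± 0.11, adjusted p = 0.00124, and 0.68 ± 0.15, adjusted p = 0.00561), in each case under all 24 alternatives. Neither genotype comparison gave such a call for *Dag1*.

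*Utrn* and the acetylcholine receptor genes share a place at the postsynaptic membrane. Of 11 subsynaptic genes tested, 7 were higher in Mtm1-/y and 0 lower by edgeR, with a median of 1.20, among them *Chrna1* (1.84 ± 0.20, adjusted p = 2.56e-05) and *Chrnd* (2.26 ± 0.25, adjusted p = 2.76e-05). The share of all genes called was 15.5% higher and 14.9% lower. Of 8 tested regulators of utrophin transcription 2 were higher, the neuregulin receptor genes *Erbb2* (1.35 ± 0.12, adjusted p = 2.72e-06) and *Erbb3* (0.56 ± 0.15, adjusted p = 0.0121). *Utrn* itself differed by 0.15 ± 0.08, as given above. All 7 markers of developing or regenerating muscle were called higher in Mtm1-/y, and their sum was 42.5 to 56.5 CPM in WT and 132 to 267 in Mtm1-/y. Their part in the values of the 8 genes was not tested.

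Likeness across libraries was described by Pearson's r of log2 CPM over all 15 libraries, in which libraries share their scaling and their group. The genes most like *Dmd* were *Srrm1* (r = 0.916), *Lamp2* (0.909) and *Nsa2* (0.901), and after subtraction of group means these values were 0.902, 0.902 and 0.904. The genes most like *Utrn* were *Numa1* (0.866), *Klhl26* (0.83) and *Dctn1* (0.820), with 0.783, 0.777 and 0.615 after subtraction of group means. *Dmd* and *Utrn* had r = 0.165 with each other.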

How the data were processed

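Deposited values were raw read counts per Ensembl gene and library, made by the authors from TruSeq stranded mRNA libraries and not normalized. The submitters' processing notes list HTSeq 0.6.1p1, STAR 2.5.3a, Bowtie2 2.2.8 and cutadapt 1.10 with builds GRCm38 and mm10, without their roles. The annotation release, filters and strand setting were not given in the sources used here. GENCODE M21 matched every one of 30672 identifiers and gave symbols, coordinates and exon lengths. Groups were taken from the labels, and all 15 columns were used. No label states a batch, date or litter. The p-values set differences between group means against the spread of libraries within groups, estimated over all 4 groups together.

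Genes were kept by filterByExpr (minimum count 10), counts were scaled by TMM, and 4 group means were fitted to all 15 libraries with edgeR 4.0.16 in R 4.3.3 (glmQLFit, robust, 11 residual degrees of freedom; glmQLFTest). Intervals of 95% come from the same fit. Total counts were 18042558 to 45823277, and a count of 0 allows up to 3 counts (counting error only). Log2 CPM used a prior count of 2. The pipeline was tested on simulated data.

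The 8 genes and all gene lists were chosen with earlier results of these data known, so a list's counts are no independent evidence. Some genes of the lists are not reported here, and list counts, medians and shares were computed without them. From each partner list at most the 6 called genes with the largest changes are named, and likeness is given for *Dmd* and *Utrn* as the 3 genes with the highest r. Alternatives were RLE and upper-quartile scaling, no filter, a stricter filter, DESeq2 1.42.0, limma-voom (limma 3.58.1), a fit of the compared groups alone, a fold requirement, the replicate number as a block, and leaving out libraries. Promoter windows and motifs were read from RefSeq (GRCm38.p6). Reads were not analysed here, and transcript starts, isoforms and protein levels were not assessed.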

Additional observations from a re-analysis of the deposited data

How the results depend on the processing

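Of the 8 genes, edgeR called 2 between Mtm1-/y and WT, but 1 (*Sntb1*) with limma-voom or with an absolute log2 fold change over 1, and 1 to 3 without a library. In treated muscle it called 2, but 1 (*Sntb1*) with that fold requirement, and 1 to 2 without a library. The tamoxifen comparisons and the interaction gave 0 of the 8 genes under every alternative run. With the replicate number as a block 2 genes were called in each genotype comparison, *Sgca* (0.33, adjusted p = 0.0479) and *Sntb1* in untreated muscle, where *Sgcd* was not called (0.58, adjusted p = 0.0572), and *Sgcd* and *Sntb1* in treated muscle. The numbers were not taken to pair the libraries, as no label states a pairing. Pearson's r of their deviations from the group means was over 0.1 in 4 of 14 same-numbered pairs (-0.113 to 0.306). It was over 0.1 in 5 of 42 differently numbered pairs (-0.338 to 0.212). So few pairs cannot decide whether the libraries were paired. RLE scaling (adjusted p = 0.0447) and the stricter filter (0.0477) also called *Sgca* in untreated muscle. The signs of 16 values that were not called turned. For Mtm1-/y against WT this was *Sgcb* with upper-quartile scaling (-0.0031), and without a library it ranged from -0.00077 to 0.119. For Mtm1-/y + TAM against Mtm1-/y the ranges without a library were -0.28 to 0.0445 for *Dmd*, -0.0622 to 0.0295 for *Utrn*, -0.148 to 0.206 for *Sgcd* and -0.44 to 0.0046 for *Sntb1*. In that comparison *Utrn* also turned with upper-quartile scaling (0.0091) and with the block (0.0053), and leaving out both libraries that stood apart gave 0.0445 for *Dmd* and -0.0662 for *Sgcd*. For WT + TAM against WT the range without a library was -0.0754 to 0.0109 for *Sgca*. For Mtm1-/y + TAM against WT + TAM it was -0.185 to 0.0282 for *Dmd* and -0.0058 to 0.119 for *Sgca*, and without both libraries that stood apart *Dmd* was at 0.0158. The cause was not tested. RLE and upper-quartile scaling left the median of all genes between -0.048 and 0.035 in all 5 comparisons. The lowest counts of the set were 76 for *Sntb1* and 127 for *Sgcd*. Spread between libraries was not a matter of counts alone, since the CV of *Sntb1* was 3.40% in WT (403 to 690 counts) and 43.3% in WT + TAM (381 to 1590 counts).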
